A study of Mus musculus with 12 samples.

Results

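The expression of 10 of the 24454 genes in the deposited table is described in MLL-AF9 leukemic blasts that either kept or lacked STAT3β. These genes are Cwc22, Nnt, Rnaset2b, Npm3-ps1, 1700097N02Rik, Dnah8, Anks1, Wdfy1, Mzt1 and Tmem180. The genes were chosen by name, and the names were selected on the normalized counts of these same 12 libraries, as genes whose level switched with the genotype in both organs. All 10 passed the minimum mean of 10 normalized counts over the 12 libraries that 11476 genes passed. Their genotype differences are therefore given as a description without a test, and tests are given for the comparison of organs, which the choice of the genes also touches.

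Fetal liver cells of wildtype (WT) mice or of mice without the β isoform of STAT3 (Δβ) were transduced with a retrovirus carrying the fusion oncogene MLL-AF9 and the fluorescent protein Venus, and were grown in male NSG mice, an immunodeficient strain with the full name NOD.Cg-Prkdc scid Il2rg tm1Wjl/SzJ. Venus+ AML blasts were sorted from the spleen (SP) and bone marrow (BM) of diseased recipients and sequenced from poly-A enriched libraries, with 3 replicates in each of the 4 groups WT SP, Δβ SP, WT BM and Δβ BM. All 4 groups thus share the oncogene, the reporter, the host strain and the sort, and differ by the donor genotype and the organ. The labels do not say whether the 3 replicates of a group came from separate fetuses or transductions, or whether a spleen and a marrow of the same number came from 1 recipient, so any p-value measures the spread between these libraries, which may be in part technical.

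The 10 genes were chosen for their genotype switch and not as a pathway, and whether they share a pathway was not tested. Inbred mouse strains differ in the level of many genes because of inherited variants in or near them. Some of the 10 are known for variation of this kind. The C57BL/6J substrain, from which the reference genome was built, carries an Nnt gene that lacks a block of internal exons, and Cwc22 lies in a chromosome 2 segment whose copy number varies among mouse stocks. The working name of the set refers to such a strain origin. The strain of the WT and Δβ donors is not given in the sources used here, the deposited values hold counts per gene and no alleles, and a strain origin of any of the 10 differences was not tested.

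The libraries held 9001051 to 13859727 reads on genes, and 1 read was worth 0.775 to 1.17 normalized counts. A gene with fewer than 3 reads in a library, which is 2.33 to 3.50 normalized counts, was taken as not detected there, and this floor and all intervals below cover only the error of counting. WT SP replicates were the least alike, with Pearson's r across genes of 0.897 to 0.964 against 0.929 to 0.968 within the other groups, and WT SP replicate 3 alone moved the number of calls in SP strongly, as given below. The share of reads on Rn45s, the ribosomal RNA precursor that poly-A enrichment removes only in part, was 0.725 to 2.48% in WT SP and 0.224 to 0.430% in Δβ SP, without overlap. In BM the shares overlapped, at 0.178 to 0.352% (WT) and 0.278 to 0.655% (Δβ). It thus moved with the genotype in SP, and its part in the SP differences below was not tested. Stat3 itself, counted per gene and so without a separation of its isoforms, overlapped between the genotypes in both organs: its normalized counts ranged from 2674 to 3236 (Δβ) and from 2978 to 4430 (WT) in SP, and from 2349 to 3228 (Δβ) and from 2714 to 3200 (WT) in BM. The 10 AML blast markers were detected in all libraries with a summed level of 54180 to 140243 normalized counts, and 4 hemoglobin genes were at 0 in all 12 libraries, with 5.43 to 17.3 normalized counts summed over the 8 erythroid markers. Of the other marker lists, the macrophage sum was 4830 to 6276 in Δβ BM and 7096 to 9415 in WT BM. In SP it was 3705 to 5260 in Δβ and 4109 to 9257 in WT. This sum came mainly from Adgre1, Vcam1, Slc40a1 and Hmox1, with medians of 2524, 1487, 969 and 342 over the 12 libraries. The macrophage markers C1qa, C1qb, C1qc, Spic, Cd5l and Mrc1 had medians of 0 to 2.29, below the floor. The endothelial sum, mostly Pecam1, was 1406 to 2523 in Δβ SP against 1049 to 1186 in WT SP, and the megakaryocyte sum was 43.7 to 59.8 against 68.9 to 84.3. The stromal, B cell and T and NK cell sums overlapped between genotypes in both organs and reached 543.8, 466 and 186 normalized counts. The stromal sum was mostly Pdgfrb and the B cell sum mostly Cd79b. The part of these other cells in the results below was not tested, and in sorted bulk RNA fewer cells of a type cannot be told apart from less RNA per cell.

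By limma with Benjamini-Hochberg adjustment (adjusted p under 0.05), 12 of 11476 genes (0.105%) were called between Δβ and WT in SP and 8 genes (0.0697%) in BM. Of these calls, 5 in SP and 5 in BM belonged to the 10 genes, which their selection on this contrast fixes in large part. The number depended on the method. DESeq2 called all 10 in both organs, among 457 genes (3.99%) in SP and 37 (0.323%) in BM, while in SP edgeR called 3 of the 10 among 4 genes (0.0349%) and limma after rescaling by trimmed means (TMM) 2 among 3 genes (0.0261%). Without WT SP replicate 3, limma called all 10 in SP among 1884 genes (16.4%) and 8 in BM among 12 genes (0.105%). With 1 of the other 11 libraries left out, 1 to 4 of the 10 were called in SP, the fewest without Δβ SP replicate 3, and 1 to 6 in BM, and Cwc22 was called in every one of these fits. All 10 had 3 Δβ values entirely on one side of the 3 WT values in both organs, in the same direction. The same held for 203 genes or 1.77% of all genes tested, with 99 higher in Δβ and 104 lower, and for 3.83% without WT SP replicate 3.

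**Figure D1:**
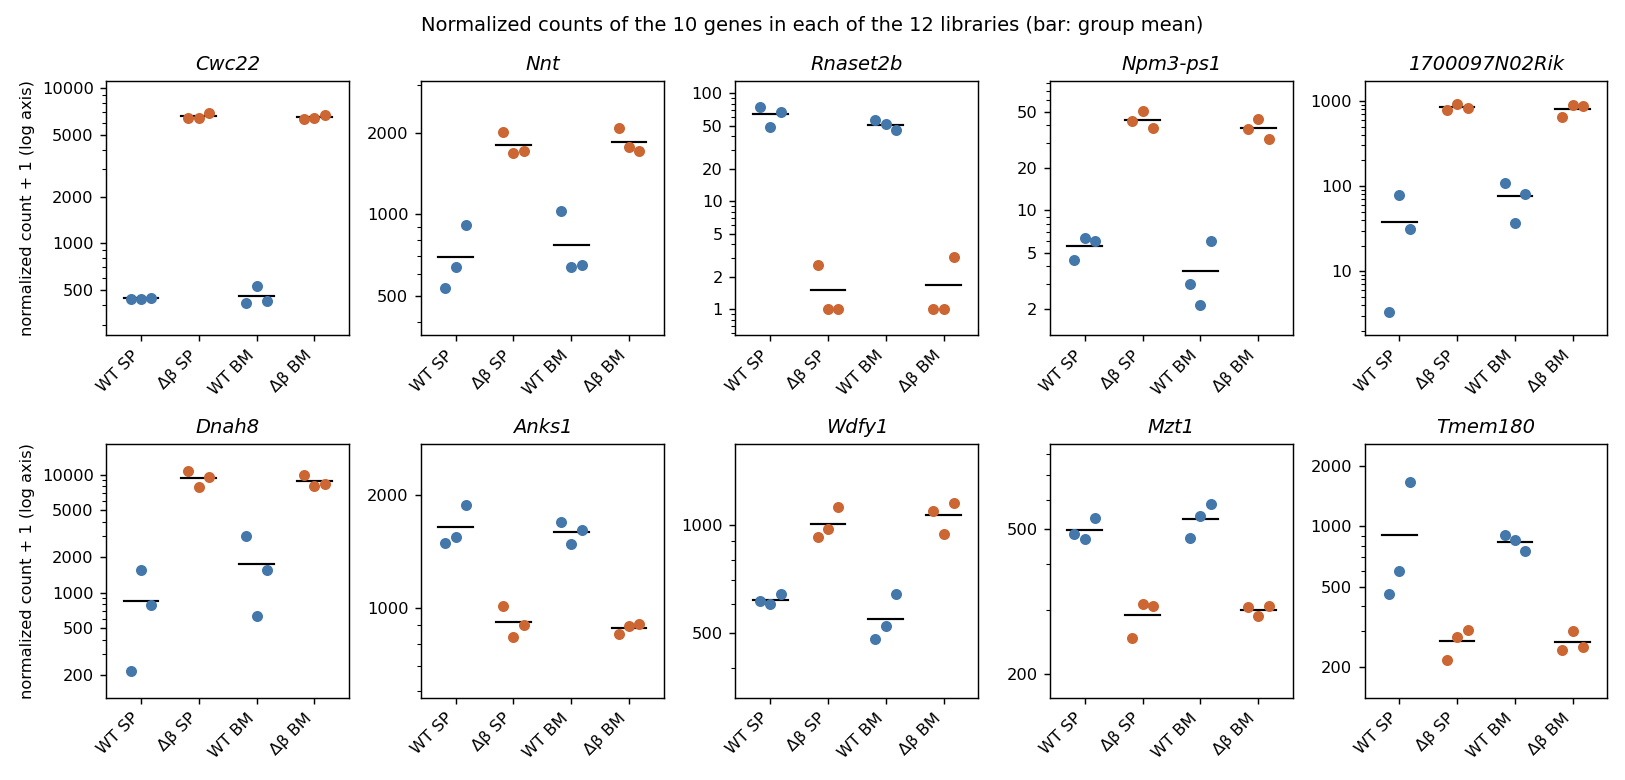
Normalized counts plus 1 (log axis) of the 10 genes in each library, grouped by genotype and organ, with blue points for WT, orange points for Δβ and a bar for the mean of 3 replicates. In every panel the 3 orange points of an organ lie entirely above or below its 3 blue points, and the nearest points of Cwc22, 527 in WT BM and 6313 in Δβ BM, are still far apart.

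Cwc22, a splicing factor that helps load the exon junction complex onto spliced messenger RNA, had the most even pattern. Its normalized counts were 439.9, 438 and 443 in WT SP and 412, 527 and 422 in WT BM. The Δβ libraries held 6424, 6387 and 6892 in SP and 6313, 6463 and 6717 in BM. Each genotype formed a narrow band, and the lowest Δβ value was 14.4 times the highest WT value in SP and 12 times in BM. The ratio of group means was 14.9 in SP and 14.3 in BM, a log2 difference of 3.89 ± 0.11 (standard error, n = 3 per group) and 3.85 ± 0.11. Standard errors here and below, except in the fit of the Δβ libraries alone, are from limma and pool the spread of all 4 groups. They are thus not the spread of only the groups compared. The spread within groups had an SD of 0.105 on the log2 scale, at the 4.91 percentile of all genes tested, where the median gene had 0.267. Cwc22 shares 18.5% of its 50-base words with transcripts of other genes, among them Gm13691, Gm13693 and Gm13694. None of these named genes is listed in the deposited table. How reads common to them and Cwc22 were counted was not tested, and the level of Cwc22 is uncertain to that degree.

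Nnt, the mitochondrial transhydrogenase that makes NADPH from NADH, was higher in Δβ with wider WT groups. Its normalized counts were 533, 637 and 909 in WT SP and 1027, 634 and 649 in WT BM, against 2018, 1691 and 1709 in Δβ SP and 2077, 1776 and 1708 in Δβ BM. The 2 highest WT values, in SP replicate 3 and BM replicate 1, stayed below the lowest Δβ value by 1.86-fold in SP and 1.66-fold in BM. The log2 difference was 1.41 ± 0.22 in SP and 1.30 ± 0.22 in BM. The deposited table lists Nnt under a non-coding transcript, and the counts cover only exons of the reference genome.

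Rnaset2b, which encodes the lysosomal and secreted ribonuclease T2, was the only one of the 10 at or below the floor in one genotype throughout. WT SP held 74.1, 47.7 and 67.0 normalized counts and WT BM 55.6, 50.7 and 45.3. The Δβ libraries held 1.55, 0 and 0 in SP and 0, 0 and 2.07 in BM, which is 2 reads in 1 library of each organ and none in the others. Pooled over the 3 libraries, 176 reads in WT SP faced 2 in Δβ SP, a ratio of 97.8 with an exact 95% counting interval of 26.7 to 814. The corresponding reads in BM were 146 and 2, a ratio of 69.3 with an interval of 18.8 to 577. Rnaset2b shares 57.2% of its 50-base words with transcripts of other genes, nearly all with its copy Rnaset2a. Rnaset2a is listed at 0 in all 12 libraries, so reads common to both copies may be missing from either gene, and the level of Rnaset2b is uncertain to that degree.

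Npm3-ps1, a pseudogene of the histone chaperone gene Npm3, was near the floor in WT. Its reads were 3, 5 and 5 in WT SP and 2, 1 and 5 in WT BM, or 3.42, 5.30 and 5.07 and 1.98, 1.13 and 5.04 normalized counts. In Δβ the normalized counts were 41.9, 49.3 and 37.4 in SP and 37.0, 43.2 and 31.1 in BM. Every Δβ library thus lay well above every WT library, with a log2 difference of 2.98 ± 0.43 in SP and 3.49 ± 0.43 in BM on a scale that understates changes of such low values. Npm3 itself, which shares 55.9% of the 50-base words of Npm3-ps1, overlapped between the genotypes, with means of 336 and 338 in WT and Δβ SP and 365 and 313 in BM. Its log2 differences were 0.01 ± 0.33 and −0.27 ± 0.33 (adjusted p = 0.986 and 1 from limma).

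Dnah8, the heavy chain of an axonemal outer dynein arm known from sperm flagella, and 1700097N02Rik, a long non-coding RNA, are divergent neighbours on chromosome 17. Their RefSeq starts lie 31 bases apart on GRCm38.p6, and their promoter windows, from 250 bases before to 50 bases after each start, overlap by 130 bases. The windows are shown because both genes of the pair were far higher in Δβ. They are written 5′ to 3′ in the direction of each gene, and the capitals mark the shared stretch, which the second window holds as the reverse complement.
Dnah8 (chr17:30626686-30626985, plus strand): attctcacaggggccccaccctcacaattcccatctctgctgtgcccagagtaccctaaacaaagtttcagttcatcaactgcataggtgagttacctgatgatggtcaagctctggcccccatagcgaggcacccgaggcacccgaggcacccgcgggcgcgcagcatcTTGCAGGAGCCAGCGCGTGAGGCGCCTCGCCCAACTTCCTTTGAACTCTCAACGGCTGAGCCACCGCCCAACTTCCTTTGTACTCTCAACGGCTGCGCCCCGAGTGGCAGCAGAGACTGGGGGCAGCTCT
1700097N02Rik (chr17:30626856-30627155, minus strand): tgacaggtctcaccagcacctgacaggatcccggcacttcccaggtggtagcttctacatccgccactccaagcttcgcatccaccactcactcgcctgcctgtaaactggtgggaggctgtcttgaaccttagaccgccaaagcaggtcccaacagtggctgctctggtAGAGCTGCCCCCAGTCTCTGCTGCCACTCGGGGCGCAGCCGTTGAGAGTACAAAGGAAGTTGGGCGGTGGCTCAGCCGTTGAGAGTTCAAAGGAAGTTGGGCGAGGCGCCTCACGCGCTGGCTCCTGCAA

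The shared stretch holds 9 CG dinucleotides, and the whole windows hold 16 and 14, against a median of 7 over 32851 RefSeq windows of the same length. Dnah8 had 218, 1539.9 and 792 normalized counts in WT SP and 3040.2, 627 and 1551 in WT BM. Its Δβ values were 10710.3, 7840.0 and 9503 in SP and 9862, 8043 and 8278 in BM. WT libraries were scattered over a wide range, while the Δβ libraries formed a narrow band above them. The lowest Δβ value was 5.09 times the highest WT value in SP and 2.65 times in BM, and the log2 difference was 3.85 ± 0.65 and 2.60 ± 0.65. With 1 library left out it ran from 3.07 without WT SP replicate 1 to 4.48 without WT SP replicate 2 in SP, and from 2.0 without WT BM replicate 2 to 3.14 without WT BM replicate 1 in BM.

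1700097N02Rik had 2.28, 78.4 and 30.4 normalized counts in WT SP and 109, 36 and 80.6 in WT BM, and the lowest of these, in WT SP replicate 1, rests on 2 reads. The Δβ values were 789.8, 924 and 821 in SP and 646, 896 and 883 in BM. Within an organ, the lowest Δβ value was 10.1 times the highest WT value in SP and 5.92 times in BM, and the log2 difference was 5.39 ± 0.89 in SP and 3.53 ± 0.89 in BM. The difference in SP was 4.08 without WT SP replicate 1 and 6.38 without WT SP replicate 2, and in BM it ran from 3.08 to 3.86 with a library left out. Per kb of exon, Dnah8 had 31.7 and 64.9 normalized counts in WT SP and BM and 349 and 325 in Δβ, while 1700097N02Rik had 43.8, 89.1, 999.9 and 956. On this scale the lncRNA thus had the higher group mean of the pair in each of the 4 groups. Only in WT SP replicate 1, where the lncRNA rests on 2 reads, was Dnah8 the higher per kb. The lncRNA shares 35.3% of its 50-base words with Dnah8 and Glo1, and the counting is not stated to use strand.

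**Figure D2:**
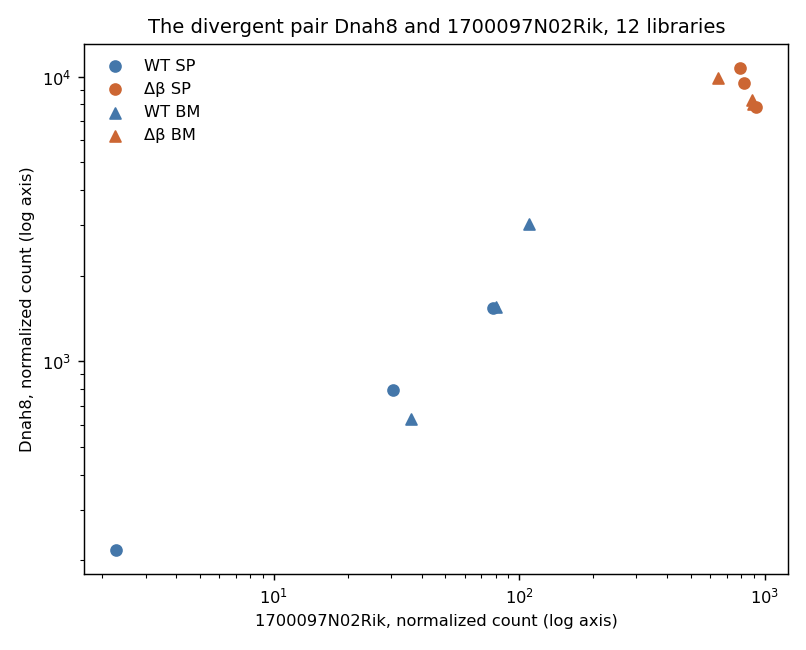
Dnah8 against 1700097N02Rik in the 12 libraries, as normalized counts on log axes, with circles for SP and triangles for BM, blue for WT and orange for Δβ. The 6 WT libraries spread along a diagonal from 2.28 and 218 to 109 and 3040.2, and the 6 Δβ libraries form a cluster at the upper right.

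The pair moved together in WT and in opposite directions in Δβ. Over the 6 WT libraries Pearson's r of their log2 values was 0.952 and Spearman's rho 0.943, and over the 6 Δβ libraries, which lie in a narrow band, r was −0.733 and rho −0.943. These values are descriptions over libraries that share their depth and normalization. Δβ libraries of the same number in SP and BM were taken as pairs, so the 6 are not independent. In both organs Δβ replicate 1 had the highest Dnah8 value and the lowest lncRNA value of its group. Reads of Dnah8 per read of the lncRNA were 17.4 to 27.9 in 5 WT libraries, 95.5 in WT SP replicate 1 and 8.48 to 15.3 in the Δβ libraries.

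Wdfy1, an endosomal adaptor of Toll-like receptor signalling, was the mildest of the genes higher in Δβ. Its normalized counts were 613, 599 and 641 in WT SP and 480.2, 520.5 and 639 in WT BM, against 925, 973 and 1123 in Δβ SP and 1093, 944 and 1152 in Δβ BM. The groups were separated by 1.44-fold in SP and 1.48-fold in BM, and the log2 difference was 0.70 ± 0.13 and 0.96 ± 0.13. Mrpl44, a mitochondrial ribosomal protein gene whose body overlaps that of Wdfy1 by 126 bases, overlapped between the genotypes with log2 differences of 0.24 ± 0.20 in SP and −0.04 ± 0.20 in BM (adjusted p = 0.546 and 1 from limma).

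Anks1, an adaptor that binds Eph receptor tyrosine kinases, was lower in Δβ. WT values were 1484, 1547 and 1879 in SP and 1696, 1480.3 and 1607 in BM. Those of Δβ were 1009.9, 836 and 900.0 in SP and 848, 891 and 905 in BM. Even the highest Δβ library stayed below every WT library, and the group means differed by 1.79-fold in SP and 1.81-fold in BM, a log2 difference of −0.83 ± 0.12 and −0.85 ± 0.12. The spread within groups was small, at the 9.95 percentile of all genes tested.

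Anks1 starts 64 bases from Taf11, a gene for a subunit of the general transcription factor TFIID that runs in the opposite direction. Their windows share 163 bases, in capitals below, and are shown as a second divergent pair beside that of Dnah8.
Anks1 (chr17:27909056-27909355, plus strand): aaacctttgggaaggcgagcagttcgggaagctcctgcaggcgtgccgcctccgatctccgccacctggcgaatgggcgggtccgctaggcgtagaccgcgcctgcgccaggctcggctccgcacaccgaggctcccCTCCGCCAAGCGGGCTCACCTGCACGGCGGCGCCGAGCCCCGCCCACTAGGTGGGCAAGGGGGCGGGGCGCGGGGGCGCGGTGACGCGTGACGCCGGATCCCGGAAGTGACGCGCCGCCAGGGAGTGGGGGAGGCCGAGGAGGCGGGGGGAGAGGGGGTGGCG
Taf11 (chr17:27909193-27909492, minus strand): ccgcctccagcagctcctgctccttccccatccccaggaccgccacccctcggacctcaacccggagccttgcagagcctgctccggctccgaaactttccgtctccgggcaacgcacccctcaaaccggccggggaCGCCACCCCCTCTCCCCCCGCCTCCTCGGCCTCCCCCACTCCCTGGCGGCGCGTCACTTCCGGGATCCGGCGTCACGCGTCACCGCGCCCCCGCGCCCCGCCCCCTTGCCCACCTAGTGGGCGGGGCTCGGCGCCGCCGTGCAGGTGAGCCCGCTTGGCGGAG

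Taf11 had means of 339 and 299.6 normalized counts in WT and Δβ SP and 302 and 284 in BM, and its genotype groups overlapped. Its log2 differences were −0.17 ± 0.13 and −0.09 ± 0.13 (adjusted p = 0.522 and 1 from limma), beside −0.83 and −0.85 of Anks1. The difference between the partners was not tested. The 9-letter motif of STAT dimers (TTCNNNGAA, which reads the same on both strands) was searched in the 8 windows that RefSeq gives for 7 of the 10 genes. It was in none of them, and 8.30% of all 32851 windows hold it. At that share so few windows would often hold none, and the windows of Anks1 overlap each other. The absence of the motif thus says little about these genes.

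Mzt1, a small subunit of the γ-tubulin ring complex that nucleates microtubules, was lower in Δβ by a similar factor. Its normalized counts were 483, 468 and 535 in WT SP and 471, 539.6 and 583 in WT BM, against 251, 310.3 and 307 in Δβ SP and 304, 289 and 307 in Δβ BM. All Δβ values were below all WT values, with a gap of 1.51-fold in SP and 1.54-fold in BM. The log2 difference was −0.78 ± 0.13 in SP and −0.82 ± 0.13 in BM. Its start overlaps by 77 bases that of Bora, an activator of mitotic kinases on the opposite strand, which is described with the neighbours.

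Tmem180, also named Mfsd13a, encodes a membrane protein of the major facilitator type. WT SP held 457, 596 and 1663 normalized counts and WT BM 904, 856 and 750.3. Δβ SP held 215, 280.0 and 303, and Δβ BM 240.3, 300.2 and 251. All Δβ values were below all WT values, and within WT SP replicate 3 held 1663 where the next highest replicate held 596. The log2 difference was −1.54 ± 0.37 in SP and −1.66 ± 0.37 in BM, and −0.98 in SP without WT SP replicate 3.

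**Figure D3:**
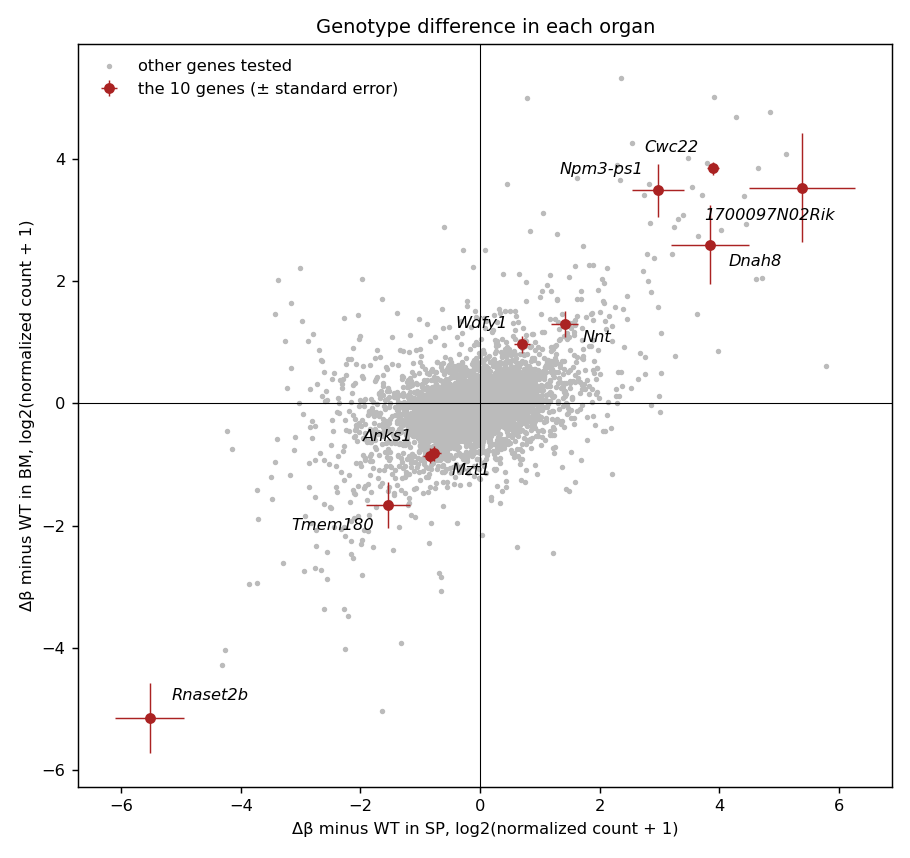
Difference of Δβ minus WT in SP (x axis) and BM (y axis) on the log2(normalized count + 1) scale for all genes tested (grey) and the 10 genes (red, with standard errors). The 6 genes higher in Δβ lie at the upper right and the 4 lower at the lower left, from Rnaset2b at −5.52 and −5.14 to 1700097N02Rik at 5.39 and 3.53.

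The spleen and marrow of a genotype were compared next. A choice of genes for a switch in both organs favours genes with like levels in SP and BM of a genotype, so small organ differences of the 10 are in part fixed by the choice and are no independent evidence of stability. No gene was called by limma with Benjamini-Hochberg adjustment between SP and BM in WT (0% of 11476 genes) or in Δβ (0%), where 949 and 203 genes had an unadjusted p under 0.05, edgeR called none and DESeq2 called 111 (0.969%) and 2 (0.0175%). Without WT SP replicate 3, limma called 5.21% of the genes between the organs of WT. None of the 10 genes was called by any of the 3 tools or without that library, and none had an unadjusted p under 0.05 by limma. In Δβ, the differences of the 10 genes between organs ran from −0.09 for Rnaset2b to 0.21 for Npm3-ps1 on the log2 scale, with a median size of 0.0664 beside 0.134 for all genes tested, and the smallest p was 0.569 (limma), for Wdfy1. The standard errors behind these values pool the spread of all 4 groups, so wide WT groups enlarge those of Δβ. With the Δβ libraries alone and their numbers as pairs, limma again called no gene, with 1192 at an unadjusted p under 0.05. In that fit the standard errors of 1700097N02Rik and Dnah8 were 0.104 and 0.105, against 0.888 and 0.652 with the 4 groups pooled. The smallest p of the 10 was 0.401 (limma). In these pairs Npm3-ps1 was the only one of the 10 that went one way in all 3, higher in SP by 0.17 to 0.26 on the log2 scale. Its difference was 0.21 ± 0.23 (adjusted p = 0.762 from limma). With 3 pairs, genes without an organ difference would often go one way, and the share over all genes was not counted. In WT the organ differences of the 10 genes ran from −1.78 to 0.71 with a median size of 0.168 beside 0.192 for all genes.

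The divergent pair had the largest organ differences in WT. 1700097N02Rik was lower in SP by a log2 difference of −1.78 ± 0.89 (adjusted p = 0.612 from limma) and Dnah8 by −1.16 ± 0.65 (adjusted p = 0.647 from limma). In both genes the WT SP and WT BM values overlapped, and leaving out WT SP replicate 1 brought the difference of the lncRNA to −0.47 and that of Dnah8 to −0.38. The other 8 genes had organ differences in WT between −0.15 for Nnt and 0.71 for Npm3-ps1, whose WT values are near the floor. Cwc22 was at −0.03 ± 0.11 in WT and 0.02 ± 0.11 in Δβ.

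**Figure D4:**
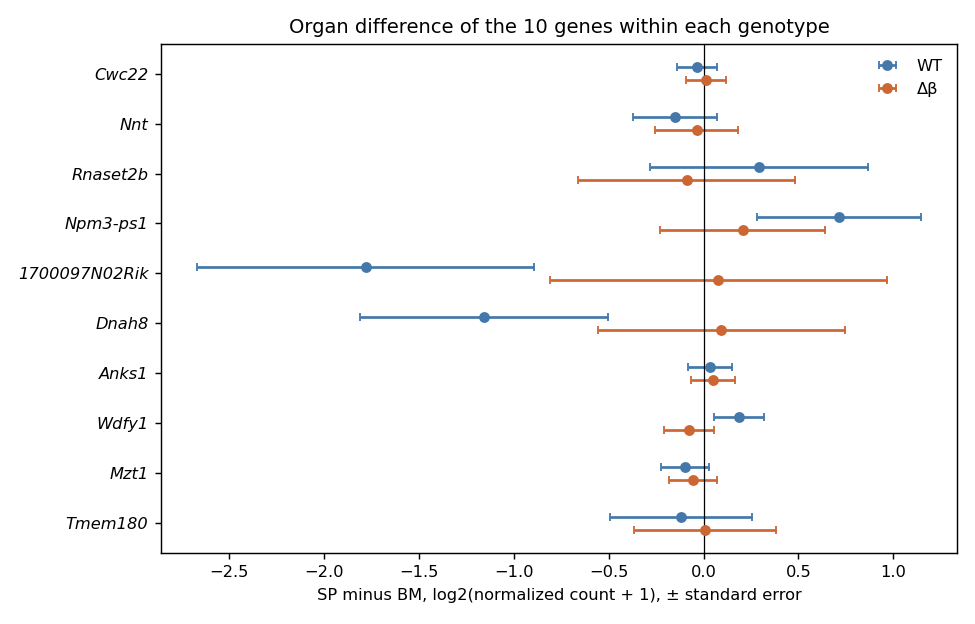
Difference of SP minus BM for the 10 genes on the log2(normalized count + 1) scale with standard errors, in WT (blue) and Δβ (orange). The standard errors pool the spread of all 4 groups, so both bars of a gene have the same length. Values lie within 0.21 of 0 in Δβ, and the largest in WT are those of 1700097N02Rik at −1.78 and Dnah8 at −1.16.

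The difference between the genotype effects of the organs was called for no gene (0% of 11476) by limma, with 367 genes at an unadjusted p under 0.05, none called by edgeR and 3 (0.0262%) by DESeq2. For the 10 genes it ran from −0.51 ± 0.61 for Npm3-ps1 to 1.86 ± 1.26 for 1700097N02Rik, with a smallest p of 0.167 and a smallest adjusted p of 0.926 (limma). Since the genes were selected for switching in both organs, small values here are in part fixed by the choice.

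Rnaset2b (chr17:6978860-6998193), Anks1 (chr17:27909304-28062779), 1700097N02Rik (chr17:30622441-30626905) and Dnah8 (chr17:30626935-30875762) lie on chromosome 17, and the other 6 on chromosomes of their own. These are Cwc22 (chr2:77881159-77946356), Nnt (chr13:119335527-119409257), Npm3-ps1 (chr6:85076182-85077126), Wdfy1 (chr1:79702262-79776143), Mzt1 (chr14:99034544-99046453) and Tmem180 (chr19:46356877-46375254), all in RefSeq coordinates of GRCm38.p6. By kind, 8 are protein-coding genes, 1 is a long non-coding RNA and 1 a transcribed pseudogene.

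Tested genes within 1 Mb of the gene bodies of the 10 were compared between genotypes in the same libraries. Of 131 such neighbours, 14 (10.7%) had genotype groups that did not overlap in either organ, 6 higher and 8 lower in Δβ, beside 179 of the 11335 genes that were neither neighbours nor among the 10 (1.58%). None of the 131 was called in SP or BM by edgeR or by limma in its main fit. With a pseudocount of 4, limma called 2 (1.53%) in SP, beside 0.157% of all genes. Without WT SP replicate 1 it called 1 (0.763%) in BM, beside 0.113%. DESeq2 called 14 of the 131 (10.7%) in SP, beside 3.99% of all genes, and 2 (1.53%) in BM, beside 0.323%. Without WT SP replicate 3, limma called 32 (24.4%) in SP, beside 16.4%. The 14 were unevenly spread: 6 of 32 neighbours of Tmem180, 2 of 14 of Rnaset2b, 2 of 38 of Anks1, 2 of 5 of Mzt1 and 2 of 16 of Dnah8, the latter also neighbours of 1700097N02Rik. There were 0 of 8 beside Nnt, 0 of 12 beside Npm3-ps1, 0 of 5 beside Wdfy1 and 0 of 1 beside Cwc22. Leaving out neighbours within 10 kb gave 11 of 123 (8.94%), and leaving out WT SP replicate 3 gave 17 of 131 (13%), beside 3.83% of all genes tested. Within 0.5 Mb the count was 11 of 66 (16.7%) and within 2 Mb 17 of 242 (7.02%).

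Sh3pxd2a, a scaffold of invasive podosomes at 884920 bases from Tmem180, had the widest gap. Its normalized counts were 231, 81.6 and 52.8 in WT SP and 77.4, 95.8 and 47.3 in WT BM, against 6.2, 1.12 and 7.47 in Δβ SP and 6.52, 1.17 and 2.07 in Δβ BM. Several Δβ libraries were below the floor of 3 reads, and the log2 difference was −4.32 ± 0.70 in SP and −4.28 ± 0.70 in BM (adjusted p = 0.0539 and 0.0789 from limma). As3mt, an arsenic methyltransferase at 331903 bases from Tmem180, had 2.28, 57.2 and 31.5 in WT SP and 128, 83.4 and 59.4 in WT BM, against 172, 291 and 233 and 171, 285 and 279 in Δβ. It was higher in every Δβ library of an organ, with log2 differences of 3.63 ± 0.83 and 1.46 ± 0.83 (adjusted p = 0.166 and 1 from limma).

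Nearer to Tmem180, the mitochondrial carrier gene Sfxn2 had log2 differences of −0.80 ± 0.23 and −0.93 ± 0.23. On the other side of the gene or farther along, Fbxw4 had 0.54 and 0.49, Cnnm2 0.61 and 0.20 and Gbf1 0.31 and 0.30 in SP and BM. Neighbours higher and neighbours lower in Δβ thus stood near the same gene. Actr1a, a dynactin subunit gene only 1559 bases from Tmem180, was at −0.34 ± 0.14 in SP and 0.05 ± 0.14 in BM (adjusted p = 0.311 and 1 from limma).

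Bora, which overlaps Mzt1, had 410.3, 466 and 700.2 normalized counts in WT SP, 495, 526 and 603 in WT BM, 243, 385 and 327 in Δβ SP and 261, 339.9 and 331 in Δβ BM. All Δβ values were below the WT values of the same organ, as they were for Mzt1, and the log2 differences were −0.71 ± 0.22 and −0.80 ± 0.22 (adjusted p = 0.233 and 1 from limma). Pibf1, 52971 bases from Mzt1, was at 0.26 and 0.34, and Dis3, 30181 bases away, at 0.59 and 0.11 with overlapping groups.

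Beside Rnaset2b, the ribosomal S6 kinase gene Rps6ka2 had 2047, 1418 and 926 normalized counts in WT SP and 372, 442 and 527 in Δβ SP, and 884, 954 and 926 against 519.7, 494 and 751 in BM. Its groups did not overlap, and the log2 differences were −1.65 ± 0.26 and −0.67 ± 0.26 (adjusted p = 0.0508 and 1 from limma). Rsph3b was at −0.46 and −0.66, while Tagap1, the nearest tested gene, was at −0.05 and −0.21 with overlap. Beside Anks1, the testis gene Tcp11 was at −2.60 ± 0.56 and −1.64 ± 0.56 at a mean of 10.1 normalized counts, close to the filter, and the chromatin reader gene Brpf3 at −0.93 ± 0.22 and −0.97 ± 0.22. The genes around Dnah8 and its lncRNA were Glo1, a detoxifying glyoxalase gene at 0.43 ± 0.14 and 0.47 ± 0.14, and Tmprss3 at −0.87 ± 0.37 and −1.45 ± 0.37. Glo1 lies 9782 bases from the lncRNA and shares 50-base words with it. Over all 10 genes, 21 distinct tested genes were the nearest on either side or overlapped a gene body. None of them was called by limma in its main fit. Of the 21, 4 did not overlap between genotypes in either organ, beside 1.77% of all genes tested. These were Rps6ka2, Glo1, Tcp11 and Bora. The other 17 overlapped in at least 1 organ. Among the 17 were Plekha3 and Ube2e3 beside Cwc22, Mrps30 and Paip1 beside Nnt, Exoc6b and Spr beside Npm3-ps1, and Ap1s3 and Cul3 beside Wdfy1.

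**Figure D5:**
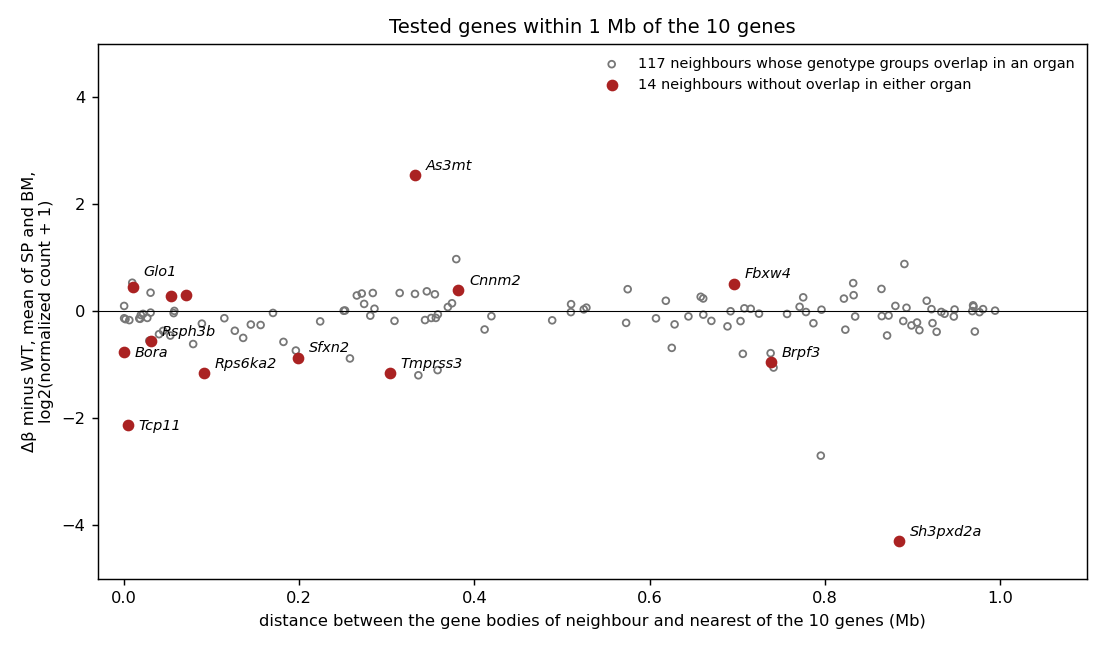
Mean of the SP and BM differences of Δβ minus WT on the log2(normalized count + 1) scale for the 131 tested genes within 1 Mb, against the distance in Mb to the nearest of the 10 genes. The 14 filled points did not overlap between genotypes in either organ and lie on both sides of 0, from Sh3pxd2a near the bottom to As3mt near the top, and open points mark the other 117.

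By chromosome, the share of tested genes without overlap in either organ was 4.50% (19 of 422) on chromosome 19 and 4.02% (25 of 622) on chromosome 17, beside 1.77% overall. The counts include the genes described here and their neighbours. Chromosomes 14 and 15 followed with 3.11% and 2.64%. Chromosome 11, which carries Stat3 and none of the 10 genes, had 2.34% (23 of 983).

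Partners of the 10 genes in their known pathways were counted from lists written from general knowledge. Of all genes tested, limma called 0.105% in SP and 0.0697% in BM, and 1.77% had no overlap in either organ. At these shares, lists this short would mostly hold no call, so the absence of calls below says little about the pathways. None of 20 tested exon junction and decay partners of Cwc22 was called by limma in either organ. In that list Magohb was higher in Δβ without overlap (log2 0.41 ± 0.17 in SP and 0.24 ± 0.17 in BM), Syf2 was at −0.37 ± 0.18 and −0.11 ± 0.18 and all but Magohb overlapped in at least 1 organ. None of 16 mitochondrial NADPH and thiol redox genes beside Nnt was called, with Idh2 at 0.68 ± 0.22 and 0.14 ± 0.22 and Prdx3 at 0.27 ± 0.16 and 0.37 ± 0.16, and all 16 overlapped in at least 1 organ. The 20 tested γ-tubulin ring and augmin genes beside Mzt1 gave no call either, and their medians were 0.12 in SP and −0.05 in BM beside −0.01 and −0.02 for all genes tested. Of these, Haus1 was at 0.21 ± 0.23 and 0.30 ± 0.23 and Nin at −0.21 ± 0.18 and −0.23 ± 0.18.

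Of 17 lysosomal nucleases and endosomal sensors listed for Rnaset2b and Wdfy1, none was called, and Traf3, a signalling adaptor, was lower in Δβ without overlap (−0.35 ± 0.11 and −0.26 ± 0.11). Tlr7, an endosomal RNA receptor, was at −2.07 ± 0.81 and −0.97 ± 0.81 and the kinase gene Ikbke at −1.33 ± 0.24 and −0.44 ± 0.24 (adjusted p = 0.0771 and 1 from limma), both with overlap in at least 1 organ. The macrophage marker sum given above, which came mainly from Adgre1, Vcam1, Slc40a1 and Hmox1, was lower in Δβ BM as well. The part of that sum in these values was not tested. Only 5 of 19 axonemal dynein genes and 3 of 14 Eph receptors passed the minimum mean, with none called. Among the dyneins Dnah6 was at −1.42 ± 0.59 and −0.59 ± 0.59, and Dnal1 at 1.06 ± 0.55 and 0.42 ± 0.55, and of these 5 genes 1 was higher in Δβ in SP and 2 in BM. Among the Eph receptors Epha1 was at −1.38 ± 0.58 and −0.02 ± 0.58 and Epha7 at 0.07 ± 1.96 and 1.23 ± 1.96. Of 6 tested paralogs of the 10 genes none was called, with Wdfy3 at −0.62 ± 0.43 and −0.24 ± 0.43 and Npm1 at 0.50 ± 0.20 and 0.12 ± 0.20.

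The mean of the z-scores of the 10 genes, each signed by its direction in Δβ, gives 1 value per library that ran from −1.07 to −0.710 in WT and from 0.854 to 0.967 in Δβ. Each of the 10 is a part of this mean, and over the 12 libraries r to it was 0.913 to 0.990 for the 6 genes higher in Δβ and −0.982 to −0.885 for the 4 lower. The 6 other genes that followed it most closely were Slc35c1 (r = −0.946), Ctse (0.942), Chst1 (−0.941), Sh3pxd2a (−0.939), Chit1 (0.936) and Acaca (−0.935). Each r is a description over 12 libraries that share 2 genotypes.

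Slc35c1, the Golgi carrier of GDP-fucose, had 1696 to 1898 normalized counts in WT SP and 1004 to 1170.1 in Δβ SP, and 1870.2 to 1984 against 1069 to 1322 in BM, a difference of −0.70 ± 0.11 and −0.69 ± 0.11 on the log2 scale. Chst1, a carbohydrate sulfotransferase, was at −4.26 ± 0.70 and −4.03 ± 0.70, with Δβ values of 0 to 2.14 in SP and 0 to 4.35 in BM around the floor. Acaca, the enzyme that starts fatty acid synthesis, was at −0.62 ± 0.14 and −0.60 ± 0.14. The cathepsin gene Ctse was at 3.47 ± 0.53 and 4.02 ± 0.53 and the chitinase gene Chit1 at 3.91 ± 0.60 and 5.01 ± 0.60. Slc35c1 (chr2:92452764-92460518) and Chst1 (chr2:92599632-92615252) are near each other on chromosome 2, on which Cwc22 also lies. Since these genes were found by their likeness to a genotype switch, their differences are a description.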

How the data were processed

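RNA of Venus+ AML blasts was sequenced in 12 libraries. The authors deposited 1 signal value per gene and library, which is the read count of the gene after division by a size factor of that library. The submitters' processing notes name FastQC, STAR, featureCounts and DESeq2 without versions, and the builds GRCm38 and mm10. Read length and strandedness are not given in the sources used here. In each library 100% of the values were whole multiples of 1 step, within 0.01 of a read, and reads were recovered by dividing by it. A further 6 columns match no sample label and were not used. Depth was 9001051 to 13859727 reads per library.

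Groups are the 2 genotypes in the 2 organs of the labels. Genes with a mean of at least 10 were tested with limma 3.58.1 (R 4.3.3; lmFit, eBayes with trend, 1 mean per group) on log2(normalized count + 1), a scale that understates changes of low genes, with Benjamini-Hochberg adjustment over 11476 genes. edgeR 4.0.16 and DESeq2 1.42.0 on the recovered reads were alternatives, since a count test is not the main test of normalized values. Other alternatives were pseudocounts of 0.25 and 4, no filter, a minimum mean of 50, trimmed means (TMM), no trend, a block for the replicate number and each library left out. Deviations from the group means of same-numbered SP and BM libraries correlated across genes at 0.66, 0.61 and 0.63 in Δβ and at −0.01, −0.04 and −0.24 in WT, so the numbers were taken as pairs between the organs of Δβ, from the data and not from the labels. The limma fit was tested on simulated data with 200 genes among 11476 raised or lowered 4-fold. It recovered 161 in SP and 169 in BM with 3 and 12 false calls. Between the organs of WT and Δβ it recovered 151 and 163 with 6 and 10, and it made 0 calls without changed genes. Recovery of smaller changes was not simulated. The counts were drawn independently for each gene, so no simulated library deviated across many genes at once. These rates need not hold for the real libraries, where WT SP replicate 3 alone moved the calls in SP strongly.

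Gene positions and promoter windows are those of RefSeq on GRCm38.p6, where 24376 genes were matched by Entrez gene. Exon lengths and 50-base words shared with other transcripts come from GENCODE release M21 on GRCm38. Neighbours are tested genes within 1 Mb of a gene body. Named genes are the 10, their paralogs and adjacent genes, up to 12 neighbours without overlap ranked by size of the mean difference, in each list the 2 genes with the largest mean difference, and the 6 genes most like the mean z-score. Gbf1, Pibf1 and Traf3 are named in addition, after their values were seen. The members and lists were chosen with earlier results of these data known.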

Additional observations from a re-analysis of the deposited data

How the results depend on the processing

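All 10 genes kept the direction of their genotype difference in both organs under pseudocounts of 0.25 and 4, TMM and with each library left out. Their genotype values did not overlap in either organ, so a pseudocount or a left-out library could not reverse a direction. The kept directions are therefore no evidence of robustness. The number of genes called over the whole table did depend on the processing, and the cause was not tested. In SP, where limma called 12, it was 1 with a pseudocount of 0.25, 5 with no filter, 2 with a minimum mean of 50, 3 with TMM, 3 without trend, 4 with edgeR and 457 with DESeq2, and 1 to 1884 with a library left out, the highest without WT SP replicate 3. In BM, where it was 8, it was 5 without trend and 37 with DESeq2, and 1 to 13 with a library left out. Between SP and BM, where it was 0, DESeq2 called 111 in WT, 2 in Δβ and 3 for genotype by organ, and leaving out a library gave 0 to 598 in WT. With the replicate number as a block (replicate block), 2 genes were called in SP and 5 in BM and none between organs. Outside this alternative, the numbers were not taken as pairs between genotypes or in WT. They were in Δβ, where a fit of the Δβ libraries alone with the number as a block, added after the data were seen, called 0 genes between organs.

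Organ differences close to 0 changed sign. That of Tmem180 in WT, −0.12, was 0.11 with edgeR and 0.12 with DESeq2, and −0.68 to 0.25 with a library left out. The other ranges that crossed 0 with a library left out were, in WT, −0.099 to 0.079 for Cwc22, −0.36 to 0.076 for Nnt and −0.071 to 0.099 for Anks1. In Δβ they were −0.020 to 0.039 for Cwc22, −0.12 to 0.048 for Nnt, −0.54 to 0.45 for Rnaset2b, −0.077 to 0.16 for 1700097N02Rik, −0.010 to 0.21 for Dnah8, −0.023 to 0.11 for Anks1, −0.11 to 0.043 for Mzt1 and −0.10 to 0.15 for Tmem180. None of these was past the threshold. The fitted difference of Rnaset2b ran from −7.01 with a pseudocount of 0.25 to −3.89 with 4 in SP and from −6.59 to −3.56 in BM, as 4 of its 6 Δβ values are 0.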

Other observations

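Low values of the Dnah8 pair in WT SP replicate 1 were shared by a gene on another chromosome. In that library 1700097N02Rik on chromosome 17 and As3mt on chromosome 19 had 2 reads each, the lowest of all 12 libraries for both genes, and Dnah8 was at its lowest with 218 normalized counts. In WT BM replicate 1 all 3 genes had the highest value of the 6 WT libraries, with 109, 128 and 3040.2 normalized counts for 1700097N02Rik, As3mt and Dnah8. Sh3pxd2a had its highest value, 231 normalized counts, in WT SP replicate 1. These genes were chosen for this comparison after their values were seen, and no test was run.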
